A study of Mus musculus with 32 samples.

Results

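The hepatic expression of 10 immediate early genes, Egr1, Fos, Fosb, Jun, Junb, Atf3, Ier2, Ier3, Dusp1 and Myc, was examined in livers from mice fed a chow or a methionine and choline deficient (MCD) diet, treated or not with Fc-GLP-1 and subjected or not to partial hepatectomy (PH). The genes were taken by name from the array, each had 1 probe, and all 10 were among the 21071 genes tested. The set was selected on the measured values of Egr1, which was lower after than before PH in the C+Fc-GLP-1 group (chow diet and Fc-GLP-1), so the difference between these 2 groups of arrays is described here without a test for any of the 10 genes. Egr1 was likewise not tested in any other comparison that uses C+Fc-GLP-1 arrays, and for the other 9 genes such comparisons share arrays with the difference that selected the set.

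The mice were male C57/BL6, 8 weeks old at the start. The C group received chow, and the MCD group received a diet lacking methionine and choline, a standard dietary model of fatty liver with inflammation, in both cases for 3 weeks and with saline injections. The groups C+Fc-GLP-1 (chow) and M+Fc-GLP-1 (MCD diet) were fed likewise and received, for the last 2 of the 3 weeks, subcutaneous Fc-GLP-1, a GLP-1 receptor agonist peptide fused to an antibody Fc part. Each of the 4 groups was sampled at PH and, with diet and treatment continued, 2 weeks after removal of 70% of the liver, so that 8 groups of 4 arrays resulted. The livers after PH came from mice that had survived it, and the labels do not say whether any mouse was sampled at both points. The drug is named as in the study, whereas parts of the array labels speak of an agonist of both the glucagon and the GLP-1 receptor. Among the source names, those of the C+Fc-GLP-1 arrays after PH speak of treatment with a dual agonist. The labelled dose also differs from that of the study. This conflict was not resolved here.

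Immediate early genes are transcribed within minutes of a stimulus, from growth factors and cytokines to handling stress, without new protein synthesis, and their short-lived mRNAs decay soon afterwards. Fos and Fosb join Jun and Junb to form AP-1, a leucine zipper transcription factor, and Egr1 is a zinc finger factor induced through MAP kinases and serum response factor. Atf3 is a stress-induced factor of the ATF and CREB family, Myc drives growth and ribosome production, Ier2 and Ier3 are small early response proteins, and Dusp1 is a phosphatase that switches off MAP kinases. In rodent liver these genes are known for their burst in the first hours after PH. The livers here were sampled at surgery and 2 weeks later, not during that burst. By the study's account, samples before PH were removed at the operation and livers after it were taken at sacrifice. Way of collection and time point therefore cannot be told apart.

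Levels are given as log2 of the processed signal relative to the 75th percentile of each array, so that a value of 0 is a signal equal to that percentile, and a level of one probe is not compared with that of another. The share of probes well above background ranged from 35.9% to 69.0% over the arrays (median 51.6%). Egr1, Jun, Atf3, Ier2, Ier3, Dusp1 and Myc were well above background on all 32 arrays, Junb on 31, Fos on 29 and Fosb on 27. All 10 hepatocyte markers checked were well above background on at least 1 array of every group. The arrays lay on 5 slides. Slide 1 held C and MCD before PH, slide 2 held both treated groups before PH, slide 4 held both treated groups after PH, and slides 3 and 5 held only C or only MCD after PH. The diet could therefore be compared within a slide at 3 points, in untreated mice before PH and in treated mice before and after PH, on arrays that do not overlap. At the last of these points the source names of the C+Fc-GLP-1 arrays name a dual agonist. By the labels the drug may therefore differ there along with the diet. In every other comparison slide and group cannot be told apart, and slides 3 and 5 were read on another scanner than the remaining slides. Liver RNA is a mixture, and in it fewer cells of a type and less RNA per cell cannot be told apart.

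The reference table held promoters for 7 of the 10 genes, and Egr1, Ier2 and Myc had no entry that was used. The 250 bases before the RefSeq start (GRCm38.p6) are shown for Fos and Dusp1, which were lower on the MCD diet at each of the 3 within-slide points, and for Atf3 and Ier3, which were higher on it in untreated mice. They are written 5′ to 3′ on the strand of the gene, and capitals mark TGACG, the half-site of the cAMP response element (CRE), on either strand, and the full CRE TGACGTCA, which contains the half-site. The Fos sequence is chr12:85473640-85473889 on the plus strand, that of Dusp1 is chr17:26508473-26508722 on the minus strand, that of Atf3 is chr1:191183334-191183583 on the minus strand, and that of Ier3 is chr17:35821463-35821712 on the plus strand.
Fos: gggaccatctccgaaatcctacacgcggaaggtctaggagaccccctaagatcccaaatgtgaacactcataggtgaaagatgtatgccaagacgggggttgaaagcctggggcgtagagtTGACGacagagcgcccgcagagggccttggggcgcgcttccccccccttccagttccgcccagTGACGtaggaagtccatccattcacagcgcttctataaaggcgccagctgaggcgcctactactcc
Dusp1: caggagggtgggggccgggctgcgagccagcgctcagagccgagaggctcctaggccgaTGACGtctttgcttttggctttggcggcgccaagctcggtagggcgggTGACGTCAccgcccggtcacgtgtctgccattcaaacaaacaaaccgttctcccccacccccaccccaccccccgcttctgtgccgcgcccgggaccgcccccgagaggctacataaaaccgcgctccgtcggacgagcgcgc
Atf3: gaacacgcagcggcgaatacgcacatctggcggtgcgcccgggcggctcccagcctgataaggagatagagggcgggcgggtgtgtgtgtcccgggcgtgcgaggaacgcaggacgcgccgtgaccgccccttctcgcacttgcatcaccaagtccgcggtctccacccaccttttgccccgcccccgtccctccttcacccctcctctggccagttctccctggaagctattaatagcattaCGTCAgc
Ier3: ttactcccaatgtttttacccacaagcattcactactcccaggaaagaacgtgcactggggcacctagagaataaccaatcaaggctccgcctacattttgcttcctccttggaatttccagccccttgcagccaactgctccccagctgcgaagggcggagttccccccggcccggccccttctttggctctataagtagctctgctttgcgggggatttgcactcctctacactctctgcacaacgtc
The full CRE was found in Dusp1 and in none of the other 6 windows, against 1.55% of 32851 promoter windows of the same length. The half-site was found in Fos, Fosb, Junb, Dusp1 and Atf3 and not in Jun or Ier3, against 17.8% of all windows. An EGR site, GCGNGGGCG on either strand, was found in Fosb, against 4.70% of all windows. Neither the AP-1 site TGANTCA, held by 6.75% of all windows, nor a CArG box, to which serum response factor binds and which 1.47% hold, was found in the 7 windows. A match is a match of letters only.

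**Figure D1:**
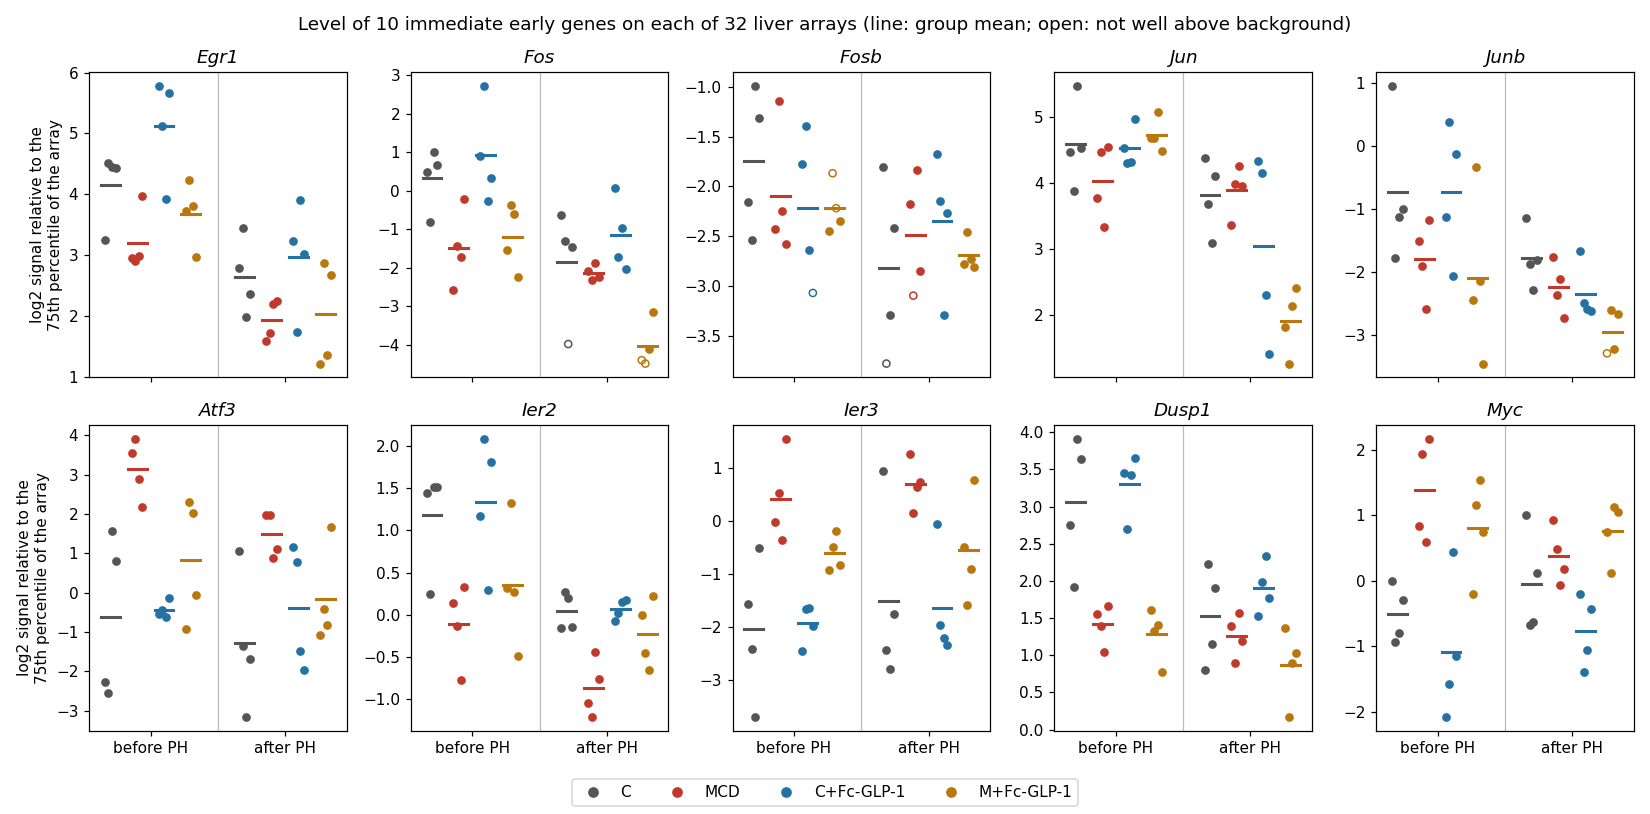
Level of each of the 10 genes on each of the 32 arrays, as log2 signal relative to the 75th percentile of the array. Each point is 1 array, lines are group means, open points were not well above background, and the 4 colours are the groups before PH (left) and after PH (right). The means of Dusp1 and Fos lie lower, and that of Myc higher, in both MCD-fed groups than in both chow-fed groups before PH.

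In untreated mice before PH the question was how the MCD diet alone related to these genes. Atf3, Ier3 and Myc were higher in the MCD than in the C group, and Fos, Ier2 and Dusp1 were lower. Thus 6 of 10 genes passed the threshold (limma, adjusted p below 0.05), 3 in each direction, whereas 26.5% of the 21071 genes tested did so. Both groups were on 1 slide.

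Atf3 had the largest difference of the 10 genes. Its levels were 3.56, 3.91, 2.90 and 2.17 in the 4 MCD livers and -2.27, -2.55, 1.56 and 0.81 in the 4 C livers. The groups did not overlap, although the C livers fell into a high and a low pair. The difference was 3.75 ± 0.89 on the log2 scale (SE, n = 4 per group, limma adjusted p = 0.00268), or 13.4-fold. Ier3, whose product is linked to cell survival under stress, was at -0.02, 0.52, -0.37 and 1.54 in the MCD group and at -1.56, -2.41, -3.69 and -0.50 in the C group. Again every MCD value lay above every C value, with a difference of 2.46 ± 0.65 (adjusted p = 0.00641). Myc was at 0.84, 1.94, 0.60 and 2.17 in MCD and at 0.01, -0.93, -0.79 and -0.29 in C livers. These groups did not overlap either, and differed by 1.89 ± 0.47 (adjusted p = 0.00364), or 3.70-fold. Of the 16 alternative settings, 8 of which left out 1 array, each kept these 3 differences past the threshold.

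Dusp1 was lower on the diet. It was at 1.55, 1.40, 1.04 and 1.66 in MCD livers and at 2.75, 1.92, 3.91 and 3.64 in C livers. The groups did not overlap and the MCD livers were closer to each other than the C livers were. The difference was -1.64 ± 0.35 (adjusted p = 0.00112) and passed the threshold in all 16 alternatives. Ier2 was at 0.14, -0.14, -0.77 and 0.33 in MCD and at 1.45, 0.25, 1.52 and 1.52 in C livers. A single C liver lay within the MCD range, and the difference was -1.29 ± 0.36 (adjusted p = 0.00833). It no longer passed when arrays were centred on their median (adjusted p = 0.0878).

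Among the AP-1 genes Fos passed the threshold. It was at -2.59, -1.44, -1.72 and -0.23 in MCD and at 0.49, -0.82, 0.99 and 0.65 in C livers. The groups overlapped at 1 array of each, and the difference was -1.82 ± 0.63 (adjusted p = 0.0337). The call was lost without C replicate 1, 3 or 4 and without MCD replicate 1, 2 or 3 (adjusted p between 0.0571 and 0.12), when arrays were centred on their median (0.108) and with the authors' values (0.0817). The other AP-1 genes and Egr1 did not pass. Their differences were -0.35 ± 0.43 for Fosb, -0.56 ± 0.45 for Jun and -1.06 ± 0.54 for Junb, of which that of Fosb was 0.015 with arrays centred on their median and that of Jun 0.08 with normexp and quantile normalization. Egr1 was at 2.95, 2.90, 2.98 and 3.97 in MCD and at 3.25, 4.51, 4.45 and 4.43 in C livers, and differed by -0.96 ± 0.46 (adjusted p = 0.118). With the authors' values the difference of Egr1 was -1.17 and passed (adjusted p = 0.0342).

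Cell type markers were compared in the same livers, where 26.5% of all genes passed. They were chosen with earlier results of these data known, so their counts are descriptions only. Of 9 macrophage and Kupffer cell markers tested, 8 were higher in MCD livers, and their summed level (log2) ranged from 5.96 to 6.83 in C and from 7.03 to 8.54 in MCD livers. Of 9 neutrophil markers 3 were higher, with sums from 2.26 to 2.98 in C and from 2.53 to 4.60 in MCD livers. Of 9 stellate cell and fibroblast markers 4 were higher, with sums from 3.60 to 4.00 and from 4.63 to 4.80. Of 10 hepatocyte markers 3 were lower, with sums from 12.1 to 12.4 in C and from 11.6 to 11.8 in MCD livers. Each macrophage and stellate cell marker tested was well above background on at least 1 array of every group, whereas the neutrophil markers Mpo and Ltf were so on no C array. Of the endothelial markers 1 of 10 was higher, with sums from 5.84 to 6.22 in C and from 6.27 to 6.60 in MCD livers. Of the T, NK and B cell markers 1 of 9 was higher and 2 were lower, with sums from 2.66 to 3.29 in C and from 1.86 to 2.57 in MCD livers. Neither pair of sums overlapped. Of the red cell and platelet markers 1 of 8 was higher and 1 lower, with overlapping sums. Their part in the differences of the early genes was not tested. The scaling also bears on the direction of all genes together: of the genes called, 2306 were higher and 3268 lower, and with arrays centred on their median 4206 were higher and 1266 lower, as the median of all genes moved from -0.13 to 0.24. The direction of each of the 6 called genes was the same under both.

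In treated mice before PH, Dusp1 and Fos were again lower and Myc again higher on the MCD diet. This comparison, M+Fc-GLP-1 against C+Fc-GLP-1, lay on 1 slide with arrays that the previous comparison did not use. Of the 9 genes tested 3 passed the threshold, against 10.4% of all genes. Dusp1 was at 1.62, 1.32, 1.41 and 0.78 in M+Fc-GLP-1 and at 3.45, 2.70, 3.42 and 3.65 in C+Fc-GLP-1 livers. The groups were apart by more than the range of either, and the difference was -2.03 ± 0.35 (adjusted p = 0.00026), past the threshold in all 16 alternatives. Fos was at -1.55, -0.39, -0.61 and -2.25 and at 0.91, 2.72, -0.28 and 0.33 in the same groups. They did not overlap, although the gap between the nearest arrays was small, and differed by -2.12 ± 0.63 (adjusted p = 0.0295). Myc was at -0.20, 1.16, 1.54 and 0.74 in M+Fc-GLP-1 and at -2.07, -1.58, 0.44 and -1.15 in C+Fc-GLP-1 livers. A single C+Fc-GLP-1 liver lay within the M+Fc-GLP-1 range, and the difference was 1.90 ± 0.47 (adjusted p = 0.00784).

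The call for Fos was lost without C+Fc-GLP-1 replicate 1 or 2 and without M+Fc-GLP-1 replicate 1 or 4 (adjusted p between 0.0512 and 0.151), with the authors' values (0.0511), with no filter on dim probes (0.0551) and in a fit of these groups alone (0.0754). In that last fit the call for Myc was lost too (0.0681). Atf3 and Ier3, higher on the diet in untreated mice, differed by 1.28 ± 0.89 and 1.32 ± 0.65 here and did not pass (adjusted p = 0.397 and 0.208), although the Ier3 groups did not overlap and Ier3 passed in the fit of these groups alone (0.021). Ier2 and Junb differed by -0.98 ± 0.36 (adjusted p = 0.0755) and -1.36 ± 0.54 (adjusted p = 0.108). Both passed without C+Fc-GLP-1 replicate 3 (0.0179 and 0.0427) and without M+Fc-GLP-1 replicate 2 (0.0175 and 0.0144), and the latter liver had the highest Ier2 and Junb of its group. Ier2 also passed with arrays centred on their median (0.0413). Egr1, not tested here, was at 3.73, 4.23, 3.81 and 2.96 in M+Fc-GLP-1 and at 5.78, 5.12, 3.93 and 5.67 in C+Fc-GLP-1 livers. Of the macrophage markers 0 of 9 were higher and 1 was lower on the diet in these livers, with summed levels from 5.66 to 6.95 in M+Fc-GLP-1 and from 6.38 to 7.26 in C+Fc-GLP-1 livers. Of the neutrophil markers 0 of 9 moved, and of the stellate cell markers 1 of 9 was lower.

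Fos, Dusp1 and Myc also passed in treated mice 2 weeks after PH, on another slide and other arrays. As the source names of these C+Fc-GLP-1 arrays name a dual agonist, diet and drug cannot be told apart here by the labels. Of 9 genes tested 3 passed, against 12.8% of all genes. Fos was at -4.40, -4.49, -4.11 and -3.16 in M+Fc-GLP-1 livers, where 2 of 4 arrays were well above background, and at 0.07, -1.72, -0.96 and -2.03 in C+Fc-GLP-1 livers. The groups did not overlap, with a difference of -2.88 ± 0.63 (adjusted p = 0.0025). It passed in all 16 alternatives, but was -1.45 with normexp and quantile normalization (adjusted p = 0.0351), which lifts dim signals by an offset. Myc was at 0.75, 0.12, 1.13 and 1.06 in M+Fc-GLP-1 and at -0.20, -1.39, -1.05 and -0.43 in C+Fc-GLP-1 livers. The groups did not overlap and differed by 1.53 ± 0.47 (adjusted p = 0.0269). Dusp1 was at 1.37, 0.17, 0.89 and 1.02 and at 1.53, 1.98, 2.34 and 1.77. These groups were separate by a small gap and differed by -1.04 ± 0.35 (adjusted p = 0.0481).

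The calls for Myc and Dusp1 at this point were close to the threshold. That for Dusp1 was lost in 11 of 16 alternatives, namely with normexp and quantile normalization (adjusted p = 0.0938), with arrays centred on their median (0.0776), with the authors' values (0.0503), with no filter (0.0903), in a fit of these groups alone (0.055), and without C+Fc-GLP-1 replicate 2, 3 or 4 or M+Fc-GLP-1 replicate 2, 3 or 4 (0.0642 to 0.181). That for Myc was lost with normexp and quantile normalization (0.0503), with no filter (0.0513), and without C+Fc-GLP-1 replicate 2 or 3 or M+Fc-GLP-1 replicate 1, 3 or 4 (0.0543 to 0.093). Jun, the main partner of Fos, differed by -1.14 ± 0.45 (adjusted p = 0.1), and C+Fc-GLP-1 livers were spread at 4.32, 4.15, 2.31 and 1.41. Without C+Fc-GLP-1 replicate 4, the lowest of them, Jun passed (difference -1.69, adjusted p = 0.00901). Atf3 and Ier3 differed by 0.22 ± 0.89 and 1.09 ± 0.65 and did not pass. Of the macrophage markers 1 of 9 was lower and 0 higher, with sums from 7.56 to 8.004 in M+Fc-GLP-1 and from 7.66 to 8.61 in C+Fc-GLP-1 livers. Of the endothelial markers 1 of 10 was lower, with sums from 5.61 to 6.09 against 6.10 to 6.75. Of the T, NK and B cell markers 3 of 9 were lower, with sums from 2.146 to 2.664 against 2.695 to 3.275. The sums of these last lists did not overlap between the groups, and the part of the markers was not tested.

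In untreated mice after PH, Atf3 and Ier3 were higher on the MCD diet. They were the 2 of 10 genes that passed, against 12.1% of all genes, and the groups lay on different slides. Atf3 was at 1.96, 1.98, 0.88 and 1.10 in MCD and at 1.05, -1.37, -3.16 and -1.69 in C livers, with 1 C liver inside the MCD range. It differed by 2.77 ± 0.89 (adjusted p = 0.0387). Ier3 was at 1.26, 0.15, 0.64 and 0.74 in MCD and at 0.94, -2.43, -2.79 and -1.76 in C livers. The same C liver, replicate 1, stood high for both genes, and Ier3 differed by 2.21 ± 0.65 (adjusted p = 0.0248). Ier2 was lower in MCD livers without overlap, by -0.91 ± 0.36 (adjusted p = 0.0948), and passed in a fit of these groups alone (0.044). The differences of Dusp1, Fos and Myc were -0.26 ± 0.35, -0.28 ± 0.63 and 0.44 ± 0.47, with 95% intervals from -0.98 to 0.46, from -1.58 to 1.02 and from -0.52 to 1.39.

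Both calls depended on single arrays. Atf3 was lost without C replicate 2, 3 or 4 and without MCD replicate 1, 2 or 4 (adjusted p between 0.0528 and 0.161), with no filter (0.0711), in a fit of these groups alone (0.0556) and with the replicate block (0.0515). Ier3 was lost without C replicate 2, 3 or 4 and without MCD replicate 1 (0.0635 to 0.11), with the authors' values (0.0847) and in a fit of these groups alone (0.0933). Of the neutrophil markers 6 of 9 were higher in MCD livers after PH, with sums from 5.81 to 7.58 in MCD and from 3.55 to 5.27 in C livers, and of the stellate cell markers 3 of 9 were lower, with sums from 4.02 to 4.50 and from 4.74 to 7.07. Their part in the difference of Atf3 and Ier3 was not tested.

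Fosb and Junb, the remaining AP-1 genes, passed in none of the comparisons in which they were tested. Over the 32 arrays Fosb ranged from -3.78 to -0.99 and Junb from -3.46 to 0.95. Before PH, Junb was at -1.12, 0.38, -2.06 and -0.13 in C+Fc-GLP-1 and at -2.45, -0.33, -2.14 and -3.46 in M+Fc-GLP-1 livers. The highest M+Fc-GLP-1 liver lay within the C+Fc-GLP-1 range, and the other 3 lay below it. In untreated mice Junb was at 0.95, -1.77, -1.14 and -0.998 in C and at -1.51, -1.90, -2.60 and -1.17 in MCD livers. A single C liver, at -1.77, lay within the MCD range, and the other 3 lay above it.

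**Figure D2:**
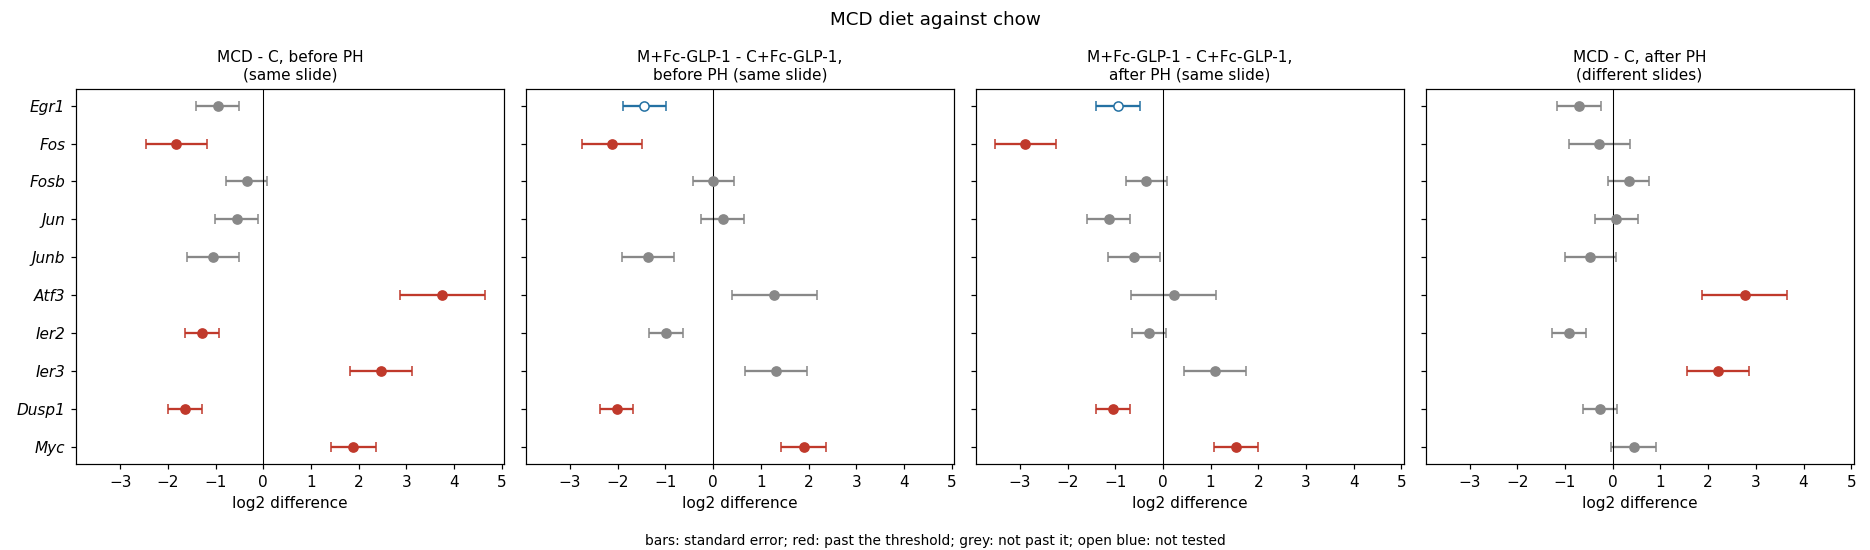
Differences in log2 level between MCD-fed and chow-fed mice (points) with their standard errors (bars) for the 10 genes, in the 3 comparisons that lie within a slide and the 1 that does not. Red points passed the threshold, grey points did not, and open blue points were not tested. Fos and Dusp1 lie left of 0 and Myc right of 0 in all 3 within-slide panels, and Atf3 and Ier3 lie farthest right in both panels of untreated mice.

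With Fc-GLP-1, Jun passed the threshold on the MCD diet after PH, and no other gene tested passed on either diet at either point. On chow before PH 0 of 9 genes passed between C+Fc-GLP-1 and C mice (limma), against 2.11% of all genes. At an unadjusted p under 0.05 there were also 0, against 18.1% of all genes. After PH 0 of 9 passed, against 2.06%, and 0 had an unadjusted p under 0.05, against 14.7%. Before PH the 95% intervals stayed within 1 of 0 for Dusp1 (-0.47 to 0.97), Ier2 (-0.57 to 0.89) and Jun (-0.99 to 0.86). Those of the other 6 genes left room for larger differences, from -0.70 to 1.89 for Fos, -1.34 to 0.40 for Fosb, -1.11 to 1.11 for Junb, -1.64 to 2.00 for Atf3, -1.22 to 1.45 for Ier3 and -1.54 to 0.37 for Myc. On the MCD diet before PH 0 of 10 genes passed, against 7.22% of all genes. An unadjusted p under 0.05 was reached by 1 of the 10, against 24.1% of all genes. That 1 gene was Atf3, at -0.92, 2.31, 2.02 and -0.05 in M+Fc-GLP-1 livers against the MCD values given above. The M+Fc-GLP-1 livers fell into a pair near the MCD range and a pair near the chow range, and the difference was -2.29 ± 0.89 (adjusted p = 0.11). It passed with normexp and quantile normalization (-2.33, adjusted p = 0.0275) and with the authors' values (-2.37, adjusted p = 0.0318). Of the macrophage markers 6 of 9 were lower in M+Fc-GLP-1 livers, with summed levels from 5.66 to 6.95 in the M+Fc-GLP-1 and from 7.03 to 8.54 in the MCD group. Of the stellate cell markers 1 of 9 was lower, with sums from 3.672 to 4.095 against 4.635 to 4.80, which did not overlap either. The part of the markers in the values of Atf3 was not tested.

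After PH, Jun was lower with Fc-GLP-1 on the MCD diet. It was the 1 gene of 10 that passed, against 6.50% of all genes. Its levels were 1.83, 1.27, 2.13 and 2.41 in M+Fc-GLP-1 and 3.36, 3.98, 4.25 and 3.95 in MCD livers. The groups did not overlap, with a difference of -1.98 ± 0.45 (adjusted p = 0.00851), or a 3.93-fold lower level, and the call was kept in all 16 alternatives. Fos, at -2.08, -2.32, -1.87 and -2.25 in MCD livers, was lower in the 4 M+Fc-GLP-1 livers without overlap, but its difference of -1.91 ± 0.63 did not pass (adjusted p = 0.0659). In a fit of these groups alone Fos passed (0.0108), and with normexp and quantile normalization its difference was -0.77. Of the neutrophil markers 8 of 9 were lower in M+Fc-GLP-1 livers, with sums from 3.26 to 5.52 against 5.81 to 7.58. Of the macrophage markers 3 of 9 were lower, with overlapping sums from 7.56 to 8.004 against 7.86 to 9.02. Of the T, NK and B cell markers 0 of 9 passed, but their sums, from 2.15 to 2.66 against 2.87 to 3.23, did not overlap. Their part in the difference of Jun was not tested, and the groups lay on different slides and scanners. Survival after PH also differed between these groups in the study.

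At 2 weeks after PH, Egr1, Fos, Ier2 and Dusp1 were lower in C mice than at the operation. Of 10 genes these 4 passed, against 14.0% of all genes, and 0 passed in the other direction. Egr1 was at 2.79, 3.44, 1.98 and 2.37 after PH, against 3.25, 4.51, 4.45 and 4.43 before it. A liver of each group lay in the range of the other, and the difference was -1.52 ± 0.46 (adjusted p = 0.0257). Fos, at -0.64, -1.32, -3.99 and -1.46 after PH, differed by -2.18 ± 0.63 (adjusted p = 0.0215), and its lowest liver was not well above background. Dusp1, at 0.80, 2.23, 1.15 and 1.91 after PH, differed by -1.53 ± 0.35 (adjusted p = 0.00457), and Ier2, at -0.15, 0.28, 0.21 and -0.14, by -1.14 ± 0.36 (adjusted p = 0.0322). In each of these genes 1 liver before PH fell into the range after PH.

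None of the 4 calls in C mice held in a fit of the 2 groups alone (adjusted p = 0.0526 for Egr1, 0.0863 for Fos, 0.0868 for Dusp1 and 0.0696 for Ier2). Dusp1 passed without each array in turn. Egr1 was lost without C before PH replicate 2, 3 or 4 and without C after PH replicate 1, 3 or 4 (0.0531 to 0.0729). Fos was lost without C before PH replicate 3 or 4 and without C after PH replicate 3 (0.0521 to 0.0976), the last of which moved its difference to -1.47. Ier2 was lost without C before PH replicate 1, 3 or 4 and without C after PH replicate 1 or 4 (0.072 to 0.0897), with arrays centred on their median (0.11), with the percentile taken over the probes detected throughout (0.0748) and with no filter (0.0508). Of the macrophage markers 9 of 9 were higher after PH in C livers, with sums from 7.13 to 9.29 against 5.96 to 6.83, as were 4 of 9 neutrophil markers (3.55 to 5.27 against 2.26 to 2.98) and 4 of 9 stellate cell markers (4.74 to 7.07 against 3.60 to 4.00). The slides, scanners and way of collection of these groups differed, and neither these nor the markers' part was tested.

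In M+Fc-GLP-1 mice Jun and Fos were lower after PH. Of 10 genes these 2 passed, against 1.71% of all genes. Jun was at 4.68, 4.67, 5.07 and 4.48 before PH and at 1.83, 1.27, 2.13 and 2.41 after it. The lowest value before PH lay well above the highest after it, and the difference was -2.82 ± 0.45 (adjusted p = 0.000738), or a 7.05-fold lower level, kept in all 15 alternatives. Fos differed by -2.84 ± 0.63 (adjusted p = 0.0163). With normexp and quantile normalization its difference was -1.32 and did not pass (0.0915), and it was lost without M+Fc-GLP-1 before PH replicate 3 (0.0649) and without M+Fc-GLP-1 after PH replicate 2 (0.0594). Egr1 did not pass, with a difference of -1.65 ± 0.46 (adjusted p = 0.0576), its groups at 1.22, 2.86, 1.36 and 2.68 after and 3.73, 4.23, 3.81 and 2.96 before PH not overlapping. It passed with normexp and quantile normalization (0.0278), with no filter (0.0498) and without M+Fc-GLP-1 before PH replicate 4 (0.0463). Of the macrophage markers 1 of 9 was higher after PH in this group, with sums from 7.56 to 8.004 against 5.66 to 6.95, and of the neutrophil markers 2 of 9 were higher, with sums from 3.26 to 5.52 against 2.44 to 2.73. Of the endothelial markers 1 of 10 (Stab2) was lower, with sums from 5.61 to 6.09 against 6.28 to 6.69. The sums of these 3 lists did not overlap between the time points, and their part in the differences of Jun and Fos was not tested.

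In MCD mice 0 of 10 genes passed between after and before PH (limma), against 9.43% of all genes. An unadjusted p under 0.05 was reached by 3 of the 10, against 23.5% of all genes. Of the 10 differences 9 were below 0, where the median difference over all genes was -0.03. Egr1 was at 1.59, 1.72, 2.19 and 2.24 after PH, below each of the 4 values before it, with a difference of -1.27 ± 0.46 (adjusted p = 0.0779). Atf3 was likewise lower without overlap, by -1.65 ± 0.89 (adjusted p = 0.264). Both passed in a fit of these groups alone (0.0203 and 0.0263). Of the neutrophil markers 7 of 9 were higher after PH, with sums from 5.81 to 7.58 against 2.53 to 4.60. Of the stellate cell markers 2 of 9 were lower, with sums from 4.019 to 4.501 against 4.635 to 4.80. Of the T, NK and B cell markers 2 of 9 were higher and 1 lower, with sums from 2.87 to 3.23 against 1.86 to 2.57. The sums of these lists did not overlap between the time points, those of the other lists did, and the part of the markers was not tested.

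The C+Fc-GLP-1 difference that selected the set is given as values only, beside the 0.835% of all genes called in it, from which nothing is read for these genes. Egr1 was at 5.78, 5.12, 3.93 and 5.67 before PH and at 3.22, 1.74, 3.90 and 3.02 after it, a difference of -2.15. The groups did not overlap, although the nearest arrays, 3.93 and 3.90, were almost equal. Of the other genes Fos differed by -2.08, Junb by -1.61, Jun by -1.48, Dusp1 by -1.40 and Ier2 by -1.27. Fosb, Atf3, Ier3 and Myc differed by -0.12, 0.06, 0.28 and 0.32. For Egr1 the mean level was highest in C+Fc-GLP-1 before PH (5.13), followed by C (4.16), M+Fc-GLP-1 (3.68) and MCD (3.20) before PH, and then by C+Fc-GLP-1 (2.97), C (2.64), M+Fc-GLP-1 (2.03) and MCD (1.94) after PH. Where neighbours in this order did not include C+Fc-GLP-1 arrays, their means differed by less than the SD within groups, pooled over all 8, of 0.68.

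**Figure D3:**
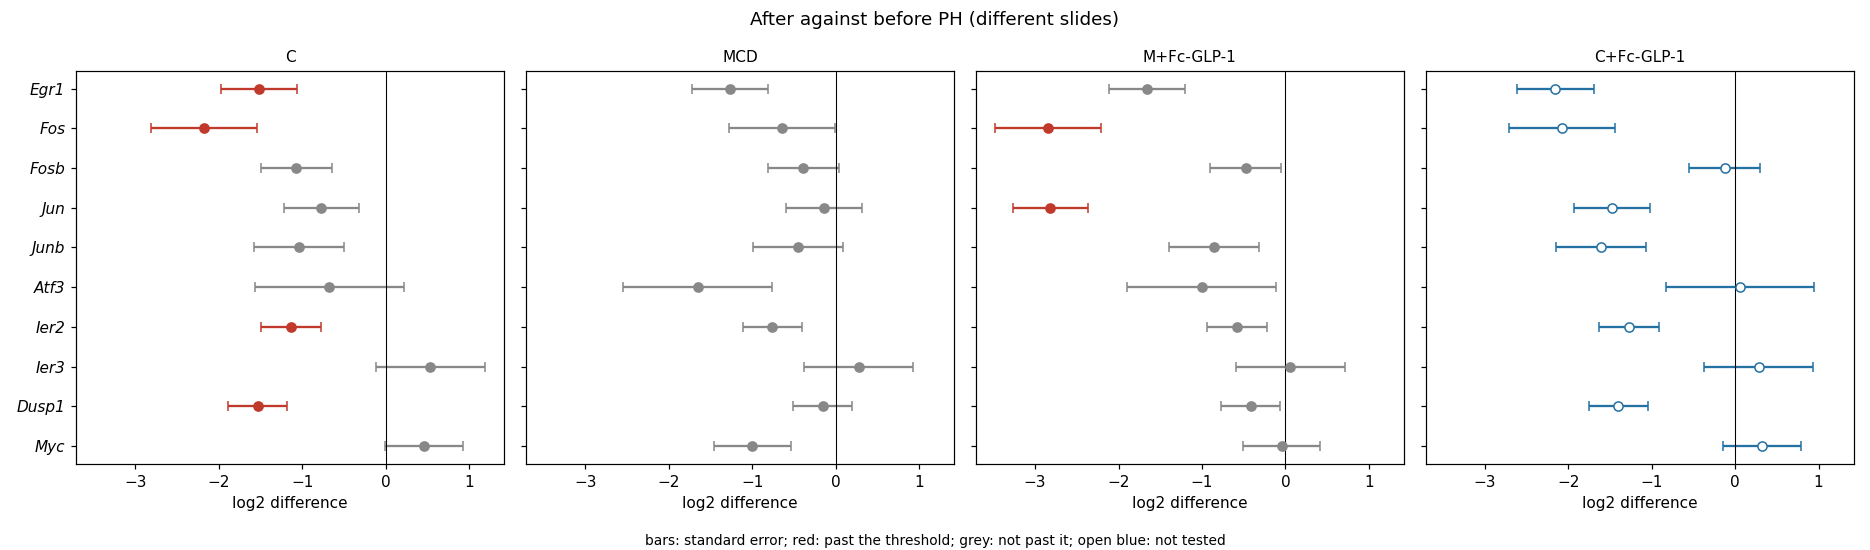
Differences in log2 level between livers 2 weeks after PH and livers taken at PH (points) with their standard errors (bars), in each of the 4 groups. Red points passed the threshold, grey points did not, and the open blue points of C+Fc-GLP-1 mice, whose Egr1 difference of -2.15 selected the set, were not tested. In the 3 tested panels Egr1, Fos, Fosb, Jun, Junb, Atf3, Ier2 and Dusp1 lie left of 0. Ier3 lies right of 0 in each of them, and Myc lies on either side.

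Whether the diet differences themselves depended on treatment or on PH was tested by interaction terms. Before PH the diet difference under Fc-GLP-1 minus that without it passed for 0 of 9 genes (limma), against 6.15% of all genes. At an unadjusted p under 0.05 there were 0 of 9, against 23.7% of all genes. After PH it passed for 0 of 9 genes (1 at an unadjusted p under 0.05), and for 0 of all 21071 genes, 8.71% of which had an unadjusted p under 0.05. That 1 gene was Fos, with -2.60 ± 0.90 (unadjusted p = 0.00704, adjusted p = 0.319). In untreated mice the diet difference after PH minus that before it passed for 0 of 10 genes, against 2.85% of all genes. An unadjusted p under 0.05 was reached by 2 of the 10, against 19.7% of all genes. The 2 were Dusp1 at 1.38 ± 0.50 (adjusted p = 0.118) and Myc at -1.45 ± 0.66 (adjusted p = 0.215). Without C before PH replicate 2 the term for Dusp1 passed (1.76, adjusted p = 0.0342). For Atf3 the interval of the term before PH ran from -5.04 to 0.11, so that these arrays did not settle whether its diet difference was alike in treated and untreated mice.

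Related genes of the same pathways were counted in lists, with 129 tested of 142 listed. The lists were chosen with earlier results of these data known, so their counts are descriptions only. In MCD against C mice before PH 33 were higher and 12 lower, with a median difference of 0.08 against -0.13 for all genes, of which 26.5% passed. The highest share of genes that were higher was among those known as targets of AP-1 and EGR1, where 10 of 17 were higher, 0 lower and the median difference was 1.48. Among them were Mmp12, a macrophage elastase (3.72 ± 0.73, adjusted p = 0.000472), and Timp1, an inhibitor of matrix proteases (3.60 ± 0.83, adjusted p = 0.00222). As given above, 8 of 9 macrophage markers were also higher in these livers. Of the other EGR, NR4A and KLF early factors 3 of 11 were higher and 0 lower, among them Egr2 (3.55 ± 1.05, adjusted p = 0.0134), a relative of Egr1. Of the AP-1 and related leucine zipper factors 4 of 13 were higher and 1 lower, of the MAP kinase phosphatases and Sproutys other than Dusp1 5 of 9 were higher and 1 lower, and of the other early response genes 5 of 25 were higher and 2 lower. The 2 were Pim1, a survival kinase (-2.75 ± 0.42, adjusted p = 2.93e-05), and Zfp36, which hastens the decay of early mRNAs (-2.35 ± 0.40, adjusted p = 9.29e-05). Of the upstream kinases and factors 0 of 25 were higher and 5 lower, and of the MYC targets of ribosome production and growth 6 of 20 were higher and 1 lower, the latter being Cad, which starts pyrimidine synthesis (-1.72 ± 0.54, adjusted p = 0.018). Of the MYC partners and antagonists 0 of 9 were higher and 2 lower.

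In treated mice 13 of 129 related genes were higher on the MCD diet and 7 lower before PH, where 10.4% of all genes passed, and 15 were higher and 7 lower after PH, where 12.8% did. Gadd45b, a stress and growth arrest gene, was higher at both points (2.77 ± 0.55, adjusted p = 0.00112, and 1.68 ± 0.55, adjusted p = 0.0401). Crem, a factor that binds CREs, was lower at both (-1.67 ± 0.37, adjusted p = 0.00353, and -1.10 ± 0.37, adjusted p = 0.0496). Ccnd1, the D-type cyclin that drives entry into the cell cycle, was higher before PH (2.64 ± 0.42, adjusted p = 9.66e-05), and of the relatives of Myc, Mycl was higher and Mycn lower at both points. Mycl differed by 1.74 ± 0.31 after PH (adjusted p = 0.000321) and Mycn by -2.68 ± 0.72 before it (adjusted p = 0.0155). Among the MYC targets 1 of 20 was higher before PH and 4 of 20 after it, with none lower, and among the AP-1 and EGR1 targets 1 of 17 and 2 of 17 were higher. In untreated mice after PH, where 12.1% of all genes passed, 11 related genes were higher on the diet and 8 lower, among the former Areg, an EGF receptor ligand that was not well above background in C livers and was at least 3.65-fold higher in MCD livers (adjusted p = 0.00312). Such a bound sets the mean of the bright group against the lowest signal measured well above background on the arrays of the other.

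Between after and before PH in C mice 6 of 129 related genes were higher and 14 lower, where 14.0% of all genes passed. Zfp36 was again among the lower ones (-3.25 ± 0.40, adjusted p = 9.36e-06), with Klf10, a TGF-beta early factor (-2.20 ± 0.55, adjusted p = 0.0088), and Pim1 (-1.66 ± 0.42, adjusted p = 0.00967), while Timp1 (3.78 ± 0.83, adjusted p = 0.00337) and Ccnd1 (1.35 ± 0.42, adjusted p = 0.0317) were higher. In MCD mice, where 9.43% of all genes passed, 2 were higher and 7 lower, among the latter Gadd45a (-2.90 ± 0.55, adjusted p = 0.00127) and Klf10 (-2.15 ± 0.55, adjusted p = 0.0128). In M+Fc-GLP-1 mice, where 1.71% passed, 0 were higher and 2 lower, including the ERK phosphatase Dusp6 (-1.56 ± 0.21, adjusted p = 0.000156), which was also called lower after PH in C and in MCD mice. Dusp6 was also the gene of these lists that was higher with Fc-GLP-1 on chow at both points (0.87 ± 0.21, adjusted p = 0.0287, before and 1.57 ± 0.21, adjusted p = 0.000177, after PH). It was 1 of 3 related genes that passed there before PH and the 1 that passed after it. With Fc-GLP-1 on the MCD diet 3 related genes were higher and 7 lower before PH, and 3 higher and 0 lower after it. Map2k6, a kinase of the p38 pathway, was lower with Fc-GLP-1 on chow before PH (-1.22 ± 0.33, adjusted p = 0.0437) and higher on the MCD diet at both points (1.06 ± 0.33, adjusted p = 0.0445, and 1.78 ± 0.33, adjusted p = 0.00144).

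Within groups most pairs of genes deviated in the same direction from liver to liver. Deviations from the group mean on 32 arrays were set against each other for the 45 pairs of genes, and Pearson r was above 0 in 37 of them, with a median of 0.25 and a range from -0.21 to 0.71. These are descriptions over arrays that share slides, scanners and the signal level of each array, and the same count over pairs of all genes was not made. The highest were Junb with Ier2 (r = 0.71, Spearman rho = 0.49), Ier3 with Myc (r = 0.64, rho = 0.71), Jun with Atf3 (r = 0.63, rho = 0.57) and Fos with Junb (r = 0.59, rho = 0.61). The pair of Ier3 and Myc gave 0.70, 0.76 and 0.62 on the 3 slides that hold 2 groups each, whereas Junb with Ier2 gave 0.66, 0.98 and -0.06. Without the 2 arrays farthest from the median of the first gene r was 0.68, 0.56, 0.57 and 0.56 for these 4 pairs. Dusp1 and Fos, both lower on the diet, gave r = 0.16 and rho = 0.20, and Egr1 gave its highest r with Fos (r = 0.45, rho = 0.40).

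Over the 8 group means Egr1 resembled Ier2 (r = 0.93), Fos (0.91), Dusp1 (0.86) and Junb (0.85) and ran against Ier3 (-0.61), Myc (-0.52) and Atf3 (-0.18). These means include those of both C+Fc-GLP-1 groups, whose Egr1 difference selected the set. The r values and ranks for Egr1 are therefore descriptions only. Fos resembled Junb, Dusp1 and Egr1 (0.91 each). Among all other tested genes the 5 with the means most like Egr1 were Plcxd2, Cct7, Dcps, Ptcd3 and Syne2 (0.97 to 0.98), and those most like Fos were Plekhf1, Cib2, Clk3, Stk40 and Rbm10 (0.97 to 0.99). Over the deviations of the 32 arrays Fos was most like Btg2, itself an early growth-arrest gene (r = 0.77), followed by Armcx4, Galnt10, Bcl2a1c and Tbcb (0.67 to 0.73). For Egr1 4 of the 5 most alike features had no gene symbol, and the fifth was 1700029J07Rik (0.64). With 8 means such values were reached by many of the 21070 other genes, among which Ier2 ranked 29 and Fos 89 for likeness to Egr1.

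**Figure D4:**
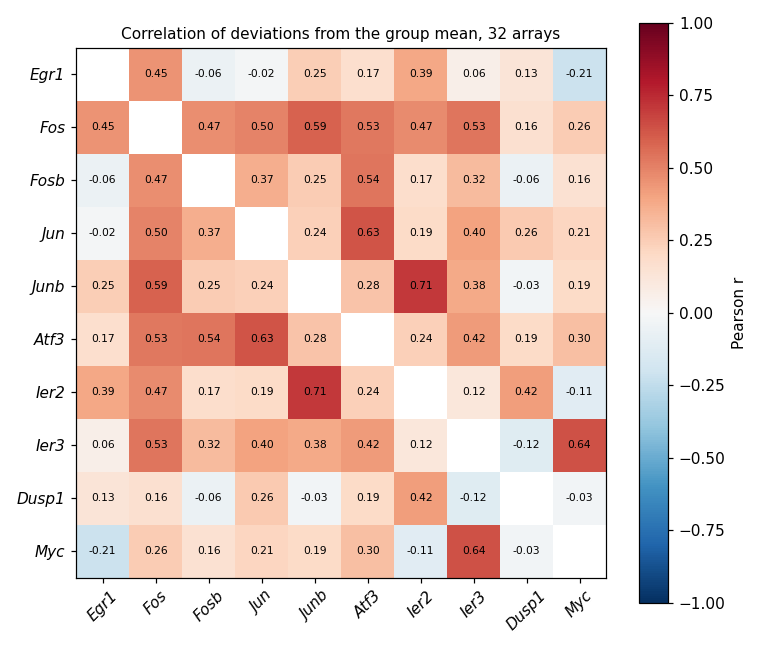
Pearson r between the deviations of each pair of the 10 genes from their group means over 32 arrays, printed in each cell and coloured from -1 (blue) to 1 (red). Junb with Ier2 (0.71), Ier3 with Myc (0.64) and Jun with Atf3 (0.63) are the 3 highest, and the pairs of Egr1 with Myc and of Dusp1 with Ier3 are the 2 lowest.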

How the data were processed

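Liver RNA samples, 4 in each of 8 groups, were hybridised to 32 1-colour Agilent arrays with 62976 spots. The labels call them biological replicates and say no more of their origin, so p-values measure the spread between these arrays. The deposited scanner files hold the processed signal intensity that Agilent software gives after background subtraction, and these intensity values were used. The authors also deposited log2 values, which they normalized with limma, and whose 75th percentiles lay between 8.567 and 8.576 before PH and between 9.184 and 9.244 after PH. They were therefore used as an alternative only within either time point. Scale and centring of these log2 values beyond this are not given in the sources used here, and each of the 32 columns matched its own array best.

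For this work, log2 intensity was set against the 75th percentile of all spots other than controls on the same array (percentiles from 209.4 to 778.4). Flagged spots were dropped, spots of a probe averaged, and probes kept when some group had all 4 arrays well above background. The brightest kept probe stood for a gene, giving 21071 genes. Gene names come from the array files, and 1711 of 27656 probes named by accession were updated through RefSeq. One model over all groups was fitted with limma 3.58.1 in R 4.3.3, with Benjamini-Hochberg adjustment over all genes and a threshold of 0.05. The fit was tested on simulated data. The number of arrays limits the precision.

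The 10 genes, the lists of related genes and the cell type markers were chosen with earlier results of these data known. All 10 genes were described in every comparison. Of the related lists, at most 3 genes in each direction per comparison could be named, those past the threshold with the largest change and groups that did not overlap. The genes most like Egr1 and Fos were the 5 with the highest Pearson r. Alternatives were normexp (offset 50) with quantile normalization, centring on the median, the percentile over probes detected throughout, the authors' values, all probes without a filter on dim ones, averaging a gene's probes, only the groups compared, a replicate block, and each array left out in turn. Promoters are those of RefSeq for GRCm38.p6.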

Additional observations from a re-analysis of the deposited data

Results flagged for a closer look

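In 5 of 80 sets of 4 arrays (10 genes in 8 groups) 1 array lay so far from the other 3 that its gap exceeded Dixon's 95% critical value as a share of their range, and chance gives about 1 in 20. For Egr1, replicate 1 of C before PH was at 3.25, below the other livers at 4.43 to 4.51, and replicate 4 of MCD before PH was at 3.97, above the others at 2.90 to 2.98. For Ier2, replicate 2 of C before PH was at 0.25, below the others at 1.45 to 1.52. In C+Fc-GLP-1 after PH replicate 1 was the highest for Junb, at -1.67 against -2.63 to -2.50, and for Ier3, at -0.068 against -2.34 to -1.97.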

How the results depend on the processing

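Of 21 differences past the threshold for single genes, 8 stayed past it in every alternative tried: Atf3, Ier3, Dusp1 and Myc between MCD and C before PH, Dusp1 between M+Fc-GLP-1 and C+Fc-GLP-1 before PH, Fos between the same groups after PH, Jun between M+Fc-GLP-1 and MCD after PH, and Jun between after and before PH in M+Fc-GLP-1. The Fos difference and both Jun differences among these 8 share the M+Fc-GLP-1 arrays after PH, which all lay on slide 4. Over the 34 differences past the threshold in any setting, 541 alternative values gave 447 on the same side of it, 74 that lost and 20 that gained the call, and 0 of opposite sign. The counts of genes past the threshold moved as follows. Between M+Fc-GLP-1 and MCD before PH 0 became 1 with normexp and quantile normalization and 1 with the authors' values. Between MCD and C after PH 2 became 1 with the authors' values, 1 with no filter on dim probes, 1 with only the groups compared and 1 with the replicate block, and 0 to 2 with an array left out. Between M+Fc-GLP-1 and MCD after PH 1 became 2 with only the groups compared. Between M+Fc-GLP-1 and C+Fc-GLP-1, 3 became 1 after PH with normexp and quantile normalization, 1 with no filter and 1 to 3 with an array left out, and before PH it was 2 to 5 with an array left out. Between after and before PH, 4 in C became 0 with only the groups compared and 1 to 4 with an array left out, 0 in MCD became 2 with only the groups compared, and 2 in M+Fc-GLP-1 was 1 to 3 with an array left out. For the diet difference after minus before PH 0 became 0 to 1 with an array left out. Fitting fewer arrays leaves fewer degrees of freedom, and for the other settings the cause was not tested.

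Counts over all genes moved by more than 1.5 times in several comparisons. With normexp and quantile normalization, the authors' values and only the groups compared, 444 between C+Fc-GLP-1 and C before PH became 2457, 2218 and 48, and with arrays centred on their median 1039. After PH 434 became 131, 69 and 88, and 211 with no filter. Between M+Fc-GLP-1 and MCD, 1521 before PH became 2639 with normexp, 2361 with the authors' values and 6761 with no filter, and 1369 after PH became 859 with the authors' values, 769 with no filter and 830 with only the groups compared. Between M+Fc-GLP-1 and C+Fc-GLP-1, 2183 before PH became 1436, 1311 and 1370 with normexp, the authors' values and only the groups compared, and 2702 after PH became 1788 with the authors' values. With only the groups compared 2558 between MCD and C after PH became 1611, and 2940 between after and before PH in C became 1163. With normexp 1987 in MCD became 1271. In M+Fc-GLP-1 361 became 623 with normexp, 926 with no filter and 98 with only the groups compared, and 176 in C+Fc-GLP-1 became 1270, 707 and 53. The term for diet by Fc-GLP-1 before PH went from 1296 to 534 with normexp, 669 with the authors' values and 2563 with arrays centred on their median, that after PH from 0 to 5 with normexp, 1 with the authors' values and 1 with only the groups compared, and that for diet by time from 601 to 332 with arrays centred on their median and 329 with no filter. Leaving out 1 array took the count as low as 198 between C+Fc-GLP-1 and C before PH (without C replicate 1) and 182 after it (without C replicate 2), 546 between M+Fc-GLP-1 and MCD before PH (without MCD replicate 1) and 691 after it (without MCD replicate 2), and 1659 between MCD and C after PH (without C replicate 2). Between after and before PH the lowest was 1527 in C (without C after PH replicate 1), 161 in M+Fc-GLP-1 (without M+Fc-GLP-1 after PH replicate 2) and 19 in C+Fc-GLP-1 (without C+Fc-GLP-1 after PH replicate 1). The terms ranged from 647 to 1477 for diet by Fc-GLP-1 before PH, 0 to 14 after it, and 274 to 832 for diet by time. The shares of all genes printed beside the counts rest on these numbers.

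The replicate numbers do not pair the samples by any label. Residuals of arrays with the same number in different groups correlated with a mean r of 0.0173 (range -0.2206 to 0.5162 over 112 pairs), against -0.0053 over 336 pairs with different numbers. The replicate block took Atf3 between MCD and C after PH from an adjusted p of 0.0387 to 0.0515 and changed no other call for these genes. A slide as a random block could not be fitted, since each group lies on 1 slide, and was not run. Signal over background limits Fos and Fosb most, which were well above it on 29 and 27 of 32 arrays.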
